A study of Mus musculus with 10 samples.

Results

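A20, the product of Tnfaip3, and 9 genes whose products bind it, work with it or are acted on by it were followed in RNA-seq of mouse prostate epithelium and of Myc-CaP cells. The genes were taken by symbol: Tnfaip3, Tnip1, Tnip2, Tnip3, Tax1bp1, Itch, Rnf11, Cyld, Traf6 and Ripk1. All 10 symbols had a row in both tables, which makes 10 of 48897 rows in each. The study asked what loss of Arid1a, a DNA-binding subunit of the SWI/SNF chromatin remodelling complex, does to prostate tumour cells. Its 10 samples fall into 4 groups. The epithelium came from C57BL/6 mice 3 months of age, whose prostate cells were sorted for EpCAM and against CD45. The control libraries A, B and C came from mice with no Arid1a deletion in their label, and the libraries labelled Arid1a KO, also A, B and C, from mice that carry Arid1aPC-/- as well. PC denotes Cre recombinase driven by the Probasin promoter, which is active in prostate epithelium. Both epithelium groups share a further engineered change driven in the same way, which means that the controls were not wild type. Myc-CaP is a mouse prostate cancer line of the FVB strain, with 2 empty vector libraries and 2 Arid1a KO libraries made with a guide RNA. The labels do not say whether the 2 knockout libraries come from 1 line or from 2, and growth in culture rather than in mice is read from the source label alone. The epithelium groups were of 3 mice each, whereas nothing states that the Myc-CaP replicates were separate cultures, so p-values there measure only the spread between libraries, which may be technical.

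When receptors such as the TNF receptor, Toll-like receptors or the interleukin receptors are engaged, ubiquitin chains are built on proteins such as RIPK1 and on ubiquitin ligases such as TRAF6. These chains recruit the kinases that activate NF-κB. A20 is a ubiquitin-editing enzyme that takes such chains apart, marks substrates for degradation and covers chains by binding them, and NF-κB itself switches on Tnfaip3, which closes a feedback loop. ABIN proteins (encoded by Tnip1, Tnip2 and Tnip3) and TAX1BP1 bring A20 to its substrates, ITCH and RNF11 are ubiquitin ligases that act with it, and CYLD is a separate deubiquitinase with overlapping substrates.

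The bases just before the transcription start are shown for Tnfaip3, a textbook NF-κB target, and for Tnip1, Tnip3 and Cyld, partners with a motif in the same window. RefSeq promoters (GRCm38.p6) were found for 8 of the 10 genes, and Itch and Rnf11 had no entry. The 250 bases before each start were searched on both strands for the kappa B consensus, for TGANTCA (the AP-1 site) and for CACGTG (an E-box). These motifs were chosen after the Tnfaip3 promoter had been read. Matches are in capitals, each sequence ends 1 base before the start, and each reads 5′ to 3′ along its gene. The Tnfaip3 stretch (chr10:19015411-19015556, minus strand) holds 1 TGANTCA match, 1 CACGTG match and 2 kappa B matches. Those of Tnip1 (chr11:54962941-54963008, minus strand), Tnip3 (chr6:65590334-65590397, plus strand) and Cyld (chr8:88696863-88697027, plus strand) each hold 1 kappa B site, which in Tnip1 is 3 overlapping matches.
Tnfaip3: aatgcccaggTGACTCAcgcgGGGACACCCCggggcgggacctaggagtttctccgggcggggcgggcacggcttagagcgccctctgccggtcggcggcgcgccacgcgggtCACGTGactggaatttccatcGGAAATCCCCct
Tnip1: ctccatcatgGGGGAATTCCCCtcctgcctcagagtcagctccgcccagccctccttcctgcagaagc
Tnip3: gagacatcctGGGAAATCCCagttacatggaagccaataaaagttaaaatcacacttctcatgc
Cyld: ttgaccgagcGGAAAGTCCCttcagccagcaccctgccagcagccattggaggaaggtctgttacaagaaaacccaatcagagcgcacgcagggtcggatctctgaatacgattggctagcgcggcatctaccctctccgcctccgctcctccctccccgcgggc
In the GENCODE gene annotation Tnip3 begins at chr6:65525313 and Tnfaip3 at chr10:19015657, so the RefSeq starts used for these genes lie inside them. A further RefSeq start of Tnfaip3, deeper inside the gene, held none of the 3 motifs in its window. Tnip2 also held 1 kappa B match, and the promoters of Tax1bp1, Traf6 and Ripk1 held none of the 3 motifs. Of all 32851 promoters of the same length, 6.75% held a kappa B match, 6.75% held TGANTCA and 6.02% held CACGTG. A match describes letters only and does not show that a factor binds there.

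The epithelium was deposited as RPKM (reads per kilobase of gene and per unit of sequencing depth) and Myc-CaP as TPM (scaled by gene length, then to the same total in every library). Both are per length, so levels can be compared between genes within a table. The low RPKM values gave depths of 0.972 to 1.23 relative to control library A. Replicates correlated across genes at 0.987 or more in both tables, and no pair of libraries was identical. The values of Arid1a are for the gene as a whole, so they cannot show whether a deleted part of it was lost. The study stained prostate sections for ARID1A protein, which was not measured here. Over the whole gene, the Arid1a transcript was not lower in the epithelium libraries labelled Arid1a KO. Its levels in the 3 controls were 27.8, 21.9 and 26.5 RPKM, against 31.1, 28.8 and 30.8 RPKM in the libraries labelled Arid1a KO, a log2 fold change of 0.25 ± 0.09 (SE; limma, adjusted p = 0.054). In Myc-CaP it was at 60.5 and 61.0 TPM with the empty vector and at 39.5 and 40.3 TPM in the knockout, so the transcript was lower but present (-0.59 ± 0.06, adjusted p = 0.0102). None of the 7 epithelial markers was at 0 in the epithelium, whereas in Myc-CaP Epcam was listed at 0 in both empty vector libraries and the summed epithelial markers stood at 1.21 to 1.88 TPM, against 45.1 TPM in both knockout libraries. Most of that difference was Krt8, a luminal keratin gene, at 1.07 and 0.79 TPM with the empty vector and 40.3 and 38.8 TPM in the knockout (log2 fold change 4.40 ± 0.12, limma adjusted p = 0.00135); its part in the Myc-CaP values that follow was not tested. The luminal factors Hoxb13 and Foxa1 were present in Myc-CaP, and Pbsn was listed at 0 in its 4 libraries.

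Tnfaip3 was the gene of the 10 that changed most in both systems, and its direction differed. In the epithelium the controls A, B and C stood at 87.5, 79.1 and 82.9 RPKM, and libraries A, B and C labelled Arid1a KO at 155, 172 and 150 RPKM. The groups were far apart, with the highest control well below the lowest library labelled knockout. The group means were 83.2 ± 4.2 and 159 ± 11.7 RPKM (SD, n = 3 each), a ratio of 1.91. After 1 was added to each value, a step that shrinks changes at low levels, the log2 fold change was 0.93 ± 0.08 (SE), with an adjusted p of 8.49e-05 by limma with Benjamini-Hochberg adjustment over the 16275 genes tested in this table.

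In Myc-CaP cells Tnfaip3 stood at 68.3 and 72.5 TPM with the empty vector and at 44.4 and 45.6 TPM in the Arid1a KO libraries. The groups did not overlap, and here the knockout was the lower one. The means were 70.4 ± 2.95 and 45.0 ± 0.842 TPM (SD, n = 2 each), a ratio of 0.639. The log2 fold change was -0.63 ± 0.06 with an adjusted p of 0.0108 by limma over 13974 genes. With 4 libraries there is little to estimate the spread from: without empty vector library 1 or 2 the adjusted p was 0.0906 or 0.105, and without knockout library 1 or 2 it was 0.114 or 0.0982, with the fold change between -0.68 and -0.59. The 2 tables were normalized separately, so the difference in direction between the systems was not tested.

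**Figure D1:**
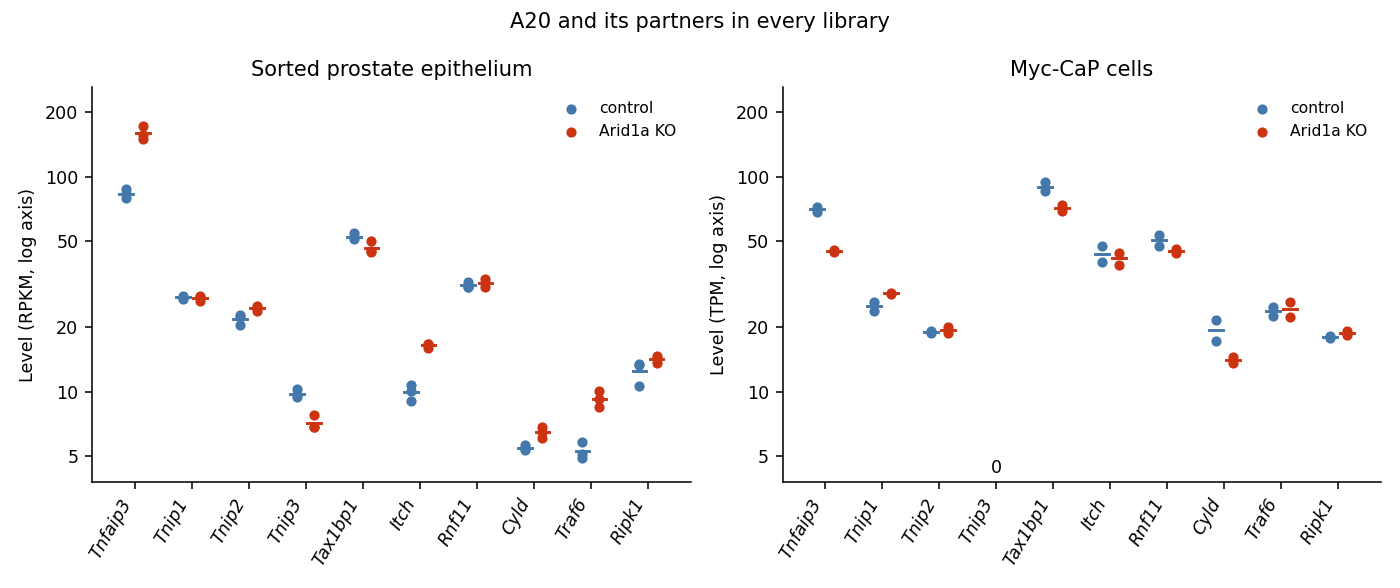
Level of each of the 10 genes in every library, in RPKM for the 6 epithelium libraries and in TPM for the 4 Myc-CaP libraries, on a log axis, with control (in Myc-CaP the empty vector) in blue and Arid1a KO in red. Points are libraries and short lines are group means. Tnfaip3 lies higher in red on the left (150 to 172 against 79.1 to 87.5) and lower in red on the right (44.4 and 45.6 against 68.3 and 72.5), and Tnip3 is listed at 0 in Myc-CaP.

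Of the 10 genes, 5 were called in the epithelium at an adjusted p under 0.05, of which 4 were higher with the Arid1a KO label and 1 was lower. This comparison called 57.1% of all genes tested, 27.5% as higher and 29.6% as lower, so 5 of 10 is close to that background. For 8 of the 10 the groups stood apart, against 66.7% of all genes. The median log2 fold change of the 10 was 0.16, against -0.03 over all genes tested. In Myc-CaP, Tnip3 was listed at 0 in all 4 libraries and could not be tested. Of the other 9 genes Tnfaip3 was the only one called, and 3 had an unadjusted limma p under 0.05. The background there was 6.43% called, 4.54% as higher and 1.89% as lower. For 6 of the 9 genes the groups stood apart, against 51.5% of all genes, and the median was -0.07 against -0.01.

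The ABIN genes did not move together in the epithelium. Tnip3, which encodes the ABIN that is itself induced by inflammatory signals, was at 9.60, 10.3 and 9.42 RPKM in the controls and at 6.83, 6.86 and 7.77 RPKM in the libraries labelled Arid1a KO. It fell, without overlap, by 0.40 ± 0.07 on the log2 scale (SE; limma adjusted p = 0.00291), opposite to Tnfaip3. Tnip1, the ABIN with the broadest expression, stood at 28.0, 27.3 and 26.9 RPKM against 27.5, 27.9 and 26.5 RPKM. Its groups overlapped, and its fold change of -0.01 had 95% limits of -0.13 to 0.12 on the log2 scale. Tnip2, whose product also binds the NF-κB1 precursor, was at 20.5, 22.7 and 22.3 RPKM against 24.9, 23.8 and 24.4 RPKM, a difference of 0.15 ± 0.06 that missed the threshold (limma adjusted p = 0.0713). It passed under 4 of 16 alternatives. These were without control library B (0.0422), quantile normalization (0.0485), removal of a trend on gene length (0.0425) and rescaling to the same sum (0.00294).

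In Myc-CaP the same family was represented by Tnip1 and Tnip2 alone. Tnip1 was at 26.1 and 23.7 TPM with the empty vector and 28.8 and 28.4 TPM in the knockout, apart but not called (0.19 ± 0.08, limma adjusted p = 0.24). Tnip2 was at 19.1 and 18.7 TPM against 18.7 and 19.9 TPM, with overlapping groups.

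Tax1bp1, which encodes a ubiquitin-binding adaptor of A20 that also serves as an autophagy receptor, was lower in the knockout libraries of both systems without being called in either. In the epithelium it was at 52.3, 51.0 and 54.5 RPKM in the controls and 44.3, 44.8 and 49.9 RPKM in the libraries labelled Arid1a KO (-0.18 ± 0.07 on the log2 scale, limma adjusted p = 0.0526). In Myc-CaP it was at 85.6 and 94.1 TPM against 69.0 and 73.9 TPM (-0.33 ± 0.07, limma adjusted p = 0.0798). Neither pair of groups overlapped. The epithelium value was called by limma without control library B (adjusted p = 0.0454), without the library labelled Arid1a KO C (0.0246) and after a trend on gene length was removed (0.0137).

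The ubiquitin ligases that act with A20 differed from each other. Itch, a HECT ligase of the Nedd4 family, was at 10.8, 9.06 and 10.1 RPKM in the epithelium controls and at 16.6, 16.0 and 16.7 RPKM in the libraries labelled Arid1a KO. The groups were well apart, at a ratio of 1.65, and the gene was called as higher (log2 fold change 0.67 ± 0.07, limma adjusted p = 2.83e-04). Rnf11, a small RING ligase, was at 32.2, 30.7 and 30.8 RPKM against 30.5, 32.0 and 33.5 RPKM, with overlapping groups and 95% limits of -0.11 to 0.18 on the log2 scale. In Myc-CaP the Itch groups overlapped at 40.2 and 47.3 TPM against 38.9 and 44.3 TPM. Rnf11 was at 47.5 and 53.6 TPM there against 46.0 and 44.2 TPM, lower in both knockout libraries and not called (-0.16 ± 0.08, limma adjusted p = 0.336).

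Cyld, the second deubiquitinase of the group, took the directions of Tnfaip3 at a smaller size. In the epithelium it was at 5.40, 5.35 and 5.64 RPKM in the controls and 6.11, 6.87 and 6.51 RPKM in the libraries labelled Arid1a KO. The groups did not overlap, and the log2 fold change of 0.21 ± 0.07 was called (limma adjusted p = 0.0333). That call was lost without control library A, B or C (adjusted p = 0.0845, 0.058 and 0.0651), without the libraries labelled Arid1a KO B or C (0.117 and 0.0707), and after a trend on gene length was removed (0.17). In Myc-CaP it was at 17.2 and 21.6 TPM with the empty vector and 13.6 and 14.5 TPM in the knockout, lower in both knockout libraries and not called (-0.43 ± 0.13, limma adjusted p = 0.139).

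Of the 2 proteins on which A20 edits chains, the ligase gene Traf6 moved in the epithelium. It was at 5.12, 4.91 and 5.85 RPKM in the controls and 8.50, 10.0 and 9.29 RPKM in the libraries labelled Arid1a KO, a ratio of 1.75 (log2 fold change 0.71 ± 0.09, limma adjusted p = 4.84e-04). The lowest of the latter lay above the highest control. Ripk1, the kinase recruited to the TNF receptor, was at 13.3, 10.6 and 13.5 RPKM against 13.6, 14.3 and 14.6 RPKM, groups that barely separated and were not called (0.18 ± 0.09, limma adjusted p = 0.149). Ripk1 overlaps Serpinb6a on the opposite strand, and the study states strand-specific counting. In Myc-CaP, Traf6 overlapped between groups at 22.5 and 24.7 TPM against 22.3 and 26.1 TPM. Ripk1 was at 17.7 and 18.2 TPM there against 18.4 and 19.1 TPM, with 95% limits of -0.13 to 0.25 on the log2 scale.

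**Figure D2:**
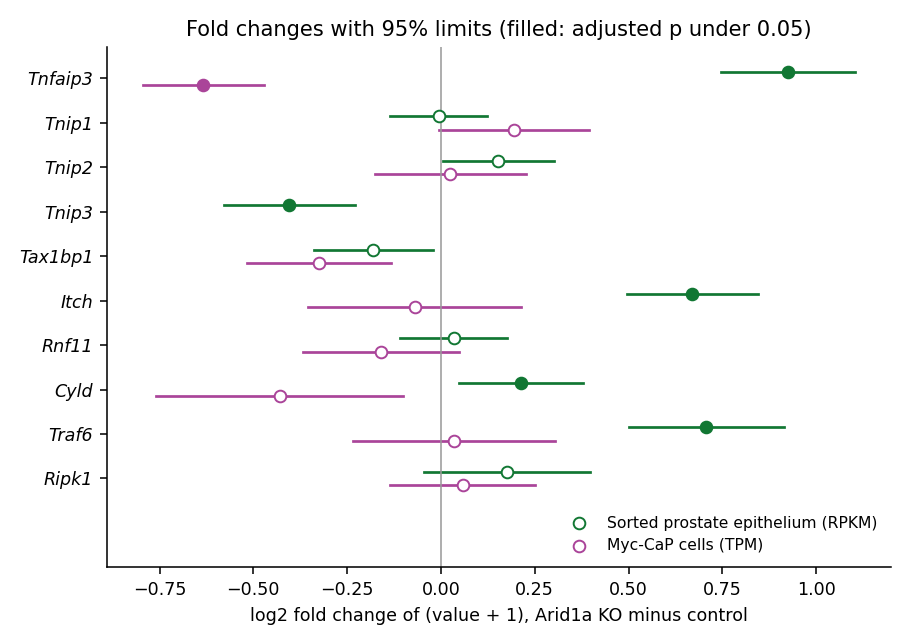
Log2 fold change of each gene, Arid1a KO minus control, on the log2(value + 1) scale with 95% limits from limma, for the epithelium (green) and Myc-CaP (purple); filled points passed an adjusted p of 0.05. Tnfaip3 is at 0.93 in green and at -0.63 in purple, and Tnip3 has no purple point because it was not tested there.

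The scaling of the epithelium libraries bears on the smaller of these values. RPKM sums ran from 441646 to 473332 in the controls and from 397999 to 403031 in the libraries labelled Arid1a KO. When each library was brought to the same sum, which puts RPKM on the TPM scale, the median of all genes moved from -0.03 to 0.11 and the calls went from 4471 higher and 4823 lower to 6046 higher and 3277 lower. Tnfaip3 was then at 1.10, Itch at 0.83, Traf6 at 0.86 and Cyld at 0.37, all called. Rnf11 (0.21), Ripk1 (0.34) and Tnip2 joined them as higher, which makes 7 of the 10 higher, and Tnip3 remained the only one called as lower. Tax1bp1 came to -0.01.

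The order of levels was led by Tnfaip3 in the epithelium and by Tax1bp1 in Myc-CaP. In the epithelium controls Tnfaip3 was followed by Tax1bp1, Rnf11, Tnip1 and Tnip2, each apart from the next in all libraries. Ripk1 overlapped with Itch and Itch with Tnip3, and Cyld and Traf6 closed the order with overlapping values. Tnfaip3 stood above 95.1% of the genes tested in the controls and above 97.6% in the libraries labelled Arid1a KO. In Myc-CaP it was second with the empty vector, above 81.7% of genes, and in the knockout, above 72.9%, it ranked below Rnf11 as well, although its libraries overlapped with those of Rnf11. Itch held rank 7 of the 10 in the epithelium controls and rank 4 in Myc-CaP.

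A ratio within a library does not depend on how that library was scaled. The share of Tnfaip3 in the summed RPKM of the 10 genes was 33.1%, 31.5% and 31.7% in the epithelium controls, against 46.5%, 48.5% and 44.2% with the Arid1a KO label. In Myc-CaP the share of the summed TPM was 19.9% and 19.4% with the empty vector and 14.8% and 14.4% in the knockout. Set against the mean log2 level of the other genes, Tnfaip3 was 0.76 higher on the log2 scale in the epithelium libraries labelled Arid1a KO (3.25 ± 0.12 against 2.49 ± 0.05, SD, n = 3 each; two-sided exact permutation p = 0.1, the smallest that 3 against 3 allows). In Myc-CaP it was lower by this measure, at 0.65 ± 0.03 against 1.20 ± 0.02 (SD, n = 2 each; two-sided exact permutation p = 0.333, the smallest that 2 against 2 allows). Against single partners the ratio of levels in the epithelium went from 8.53 to 22.4 for Tnip3 and from 1.58 to 3.45 for Tax1bp1, while for Traf6 it was 15.8 and 17.2, with ranges over libraries that overlapped (14.2 to 17.1 and 16.1 to 18.3). In Myc-CaP the ratio to Tnip1 went from 2.84 to 1.58, and that to Cyld was 3.67 and 3.20.

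**Figure D3:**
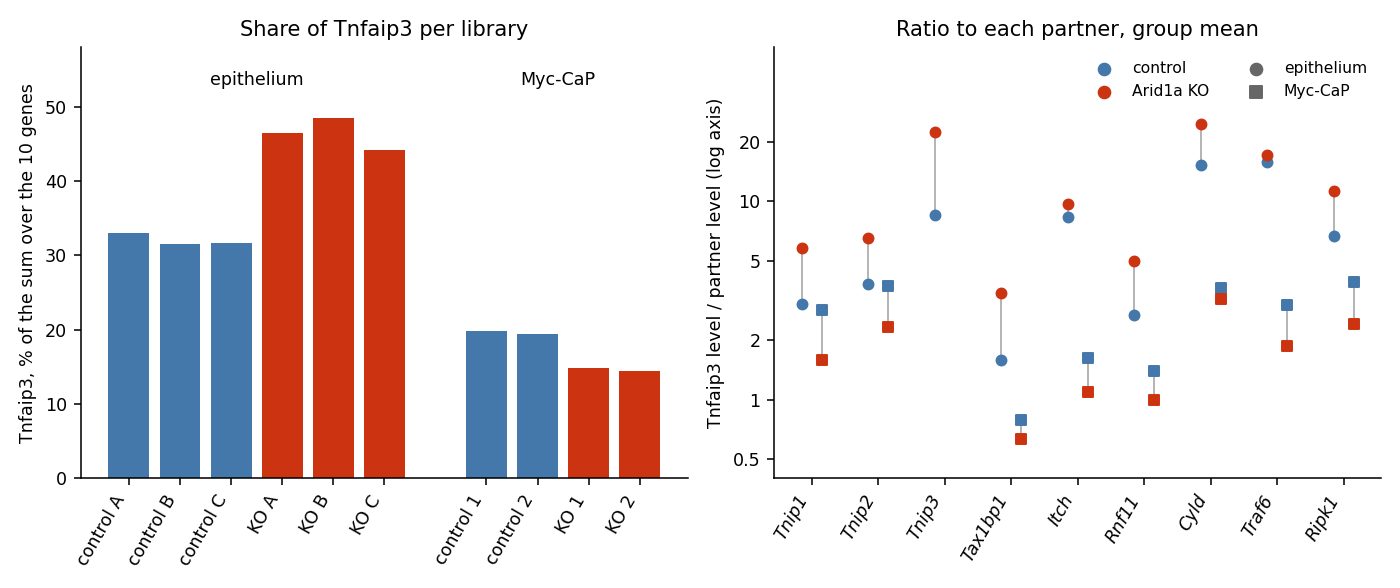
Left, Tnfaip3 as a percentage of the summed level of the 10 genes in each library (bars from 0; control blue, Arid1a KO red). Right, mean ratio of the Tnfaip3 level to that of each partner per group on a log axis, with circles for the epithelium and squares for Myc-CaP; bars for libraries labelled Arid1a KO reach 44.2% to 48.5% in the epithelium and 14.4% to 14.8% in Myc-CaP.

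Markers of other cells differed between the groups in the epithelium, although the sort selected against CD45. The counts here are of genes called by limma. They stand beside 27.5% of all genes called as higher and 29.6% as lower, so a count such as 1 of 5 says little. Of the 6 general leukocyte markers 5 were higher and 1 was lower with the Arid1a KO label, with summed levels of 903 to 971 RPKM in the controls and 1079 to 1167 RPKM in those libraries. Ptprc, the CD45 gene and 1 of the 6, averaged 28.6 RPKM in the controls and 57.3 RPKM with that label (log2 fold change 0.98, limma adjusted p = 5.36e-05). All 9 macrophage markers were higher (2328 to 2715 against 4168 to 4891 RPKM), as were 4 of the 5 B cell markers tested (125 to 140 against 430 to 752 RPKM), 3 of 7 T cell markers (33.4 to 41.0 against 42.9 to 46.7 RPKM) and, of 9 neutrophil markers, 4, with 1 lower (340 to 476 against 387 to 639 RPKM). All 6 seminal vesicle genes were lower, at 18306 to 20707 RPKM in sum against 623 to 1573 RPKM. Epithelial markers fell for 3 of 7 (4744 to 6303 against 4012 to 4406 RPKM) and luminal ones for 4 of 6, and basal ones rose for 2 of 4. Fibroblast markers were lower for 3 of 6, smooth muscle ones lower for 4 of 5 and higher for 1, and endothelial ones higher for 1 of 5. No marker of these lists was at 0 in all 6 libraries. The part of such cells in the values of Tnfaip3, Itch, Traf6, Cyld and Tnip3, and of the pathway genes below, was not tested. In bulk RNA fewer cells of a type and less RNA per cell cannot be told apart. In Myc-CaP, leukocyte markers summed to 4.31 to 5.49 TPM with the empty vector and 3.47 to 3.59 TPM in the knockout, most of it Cd52, and 7 of 9 neutrophil and 5 of 7 T cell markers were listed at 0 in all 4 libraries.

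Genes around A20 in the same pathways were read from lists compiled from general knowledge, but with earlier results of these data known. Their counts and medians are therefore a description. The part of leukocytes in their epithelium values was not tested. In the epithelium the relay list, from receptor to kinase and on to cell death, 19 genes, had 12 called as higher and 2 as lower. Of all genes 27.5% were called as higher and 29.6% as lower. The median log2 fold change of the list was 0.34, against -0.03 over all genes. Mlkl, the executor of necroptosis, was at 4.66, 4.48 and 4.61 RPKM in the controls and 11.3, 11.6 and 11.0 RPKM in the libraries labelled Arid1a KO (log2 fold change 1.14, limma adjusted p = 1.66e-05). Ripk3, the kinase that activates MLKL, rose by 0.95, and Cflar, which restrains caspase-mediated death, by 0.98. These genes belong to the cell death arm downstream of Ripk1, which itself was called only after rescaling to the same sum. Casp8, a caspase gene of the same arm, was called as higher (0.68, limma adjusted p = 2.29e-04). Fadd, an adaptor gene of that arm, was called as lower (-0.45, limma adjusted p = 0.005). In Myc-CaP 6 of the 19 had an unadjusted limma p under 0.05. Of the 19 relay genes in Myc-CaP only Tnfrsf1a, the TNF receptor gene, was called, at 57.9 and 53.8 TPM against 79.6 and 72.6 TPM (0.44, limma adjusted p = 0.0412); each library left out in turn ended that call, with adjusted p-values of 0.147 to 0.225.

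The NF-κB subunits, inhibitors and targets, 17 genes without Tnfaip3, had 11 called as higher and 1 as lower in the epithelium, beside the same 27.5% and 29.6% of all genes, with a median of 0.43 against -0.03. Rel, the c-Rel subunit, was at 9.88, 7.25 and 10.3 RPKM against 34.0, 35.4 and 33.1 RPKM, the largest fold change of the list (1.81, limma adjusted p = 3.56e-05). Tnfaip2, another TNF-induced gene, rose by 1.46 and Zc3h12a, an RNase that degrades inflammatory transcripts, by 1.10, whereas Relb was the gene called as lower. In Myc-CaP 16 were tested, with a median of 0.01, and 6 had an unadjusted limma p under 0.05. Nfkb2, which encodes the p100 precursor, was the only one called there, at 45.4 and 41.7 TPM with the empty vector and 31.9 and 32.1 TPM in the knockout (-0.43, limma adjusted p = 0.0373; 0.139 to 0.211 when 1 library was left out). In the epithelium it was at 50.3, 49.2 and 48.8 RPKM against 67.0, 68.9 and 64.6 RPKM, higher by 0.43.

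The remaining lists were mixed, with medians in the epithelium between -0.08 and 0.09 against -0.03 over all genes, and their counts stand beside the 57.1% of all genes called there and the 6.43% called in Myc-CaP. Of 10 other deubiquitinases or their adaptors tested in the epithelium 3 were higher and 2 lower. Usp18, which removes the ubiquitin-like ISG15, was at 0.40, Otub1 at -0.38 and Zranb1 at -0.38 on the log2 scale. Usp18 was the only gene of this list called in Myc-CaP, at 96.8 and 92.2 TPM against 250 and 264 TPM (1.43, limma adjusted p = 0.00167). There 3 of the 10 tested had an unadjusted limma p under 0.05. Of 16 ubiquitin-chain writers 4 were higher and 3 lower in the epithelium, among them Xiap (0.72), Peli1 (0.44) and Peli3 (-0.56), and none of 14 was called in Myc-CaP by limma, where 2 had an unadjusted p under 0.05. Of 8 relatives and adaptors of Itch tested, the ligase genes Smurf1 (0.62) and Smurf2 (0.39) were higher and Ndfip1 (-0.49), an adaptor that activates ligases of this family, was lower, while limma called none of 7 in Myc-CaP and 0 had an unadjusted p under 0.05. Of the 5 autophagy receptors related to Tax1bp1, Sqstm1 (0.28) was among 2 higher, and Calcoco1 (-0.40) and Optn (-0.27) were the 2 lower. The Sqstm1 call was lost without any of the 3 controls or the libraries labelled Arid1a KO A and B (adjusted p from 0.0606 to 0.14) and with no filter on low values (0.113), and that of Optn without control library C (0.0618) or the library labelled Arid1a KO A (0.0536) and after rescaling to the same sum (log2 fold change -0.10, adjusted p = 0.31). None of 4 receptors was called by limma in Myc-CaP, where 2 had an unadjusted p under 0.05.

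**Figure D4:**
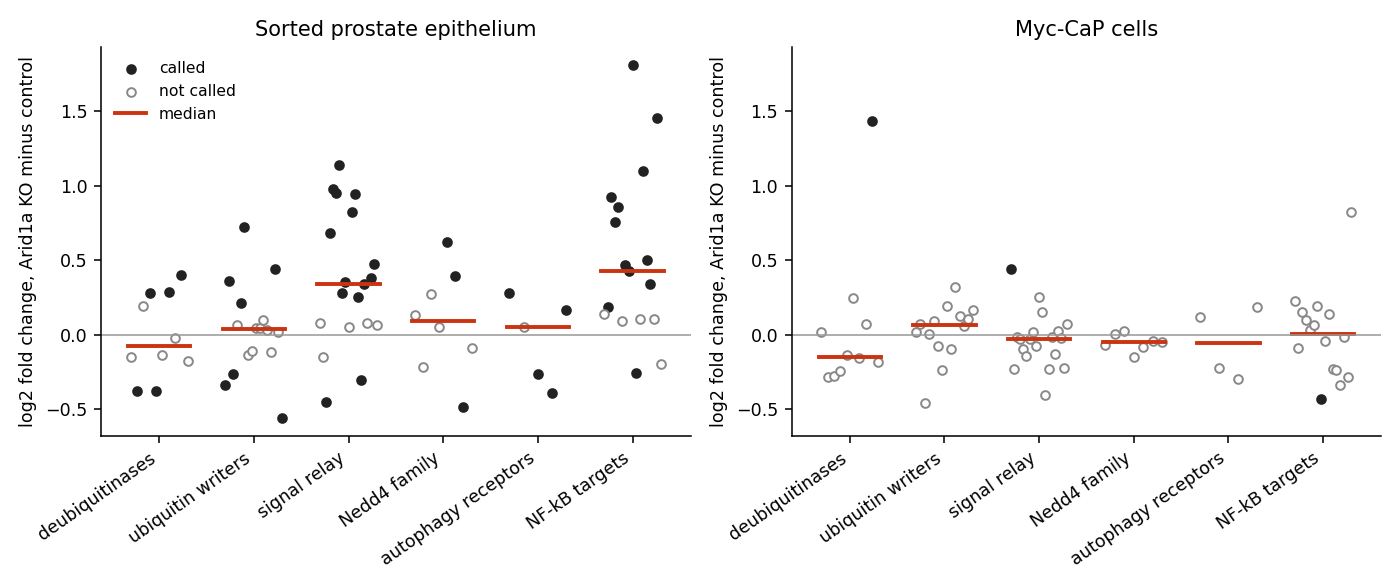
Log2 fold change, Arid1a KO minus control, of every tested gene of the 6 pathway lists in the epithelium (left) and Myc-CaP (right); filled points passed an adjusted p of 0.05, and the red line is the median of the list. In the epithelium the medians of the signal relay (0.34) and of the NF-κB list (0.43) lie above 0, and in Myc-CaP 1 point each is filled in the deubiquitinase, relay and NF-κB lists.

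Among 12123 genes tested in both tables, 599 were called in both, and Tnfaip3 was 1 of 90 called as higher in the epithelium and lower in Myc-CaP. A further 215 were lower in the epithelium and higher in Myc-CaP, 219 higher in both and 75 lower in both. The genes whose profile over the 10 libraries was most like that of Tnfaip3 were taken by the root mean square difference of log2(value + 1) after centring on the control mean of each table, among 7077 genes with a mean of at least 5 in each. Zswim4 was nearest at 0.11, followed by Itga5, an integrin subunit, at 0.11, Dgka, a diacylglycerol kinase, at 0.12, Zeb2, a transcriptional repressor, at 0.12 and Apaf1, a scaffold of caspase activation, at 0.13. Itga5 had a log2 fold change of 0.85 in the epithelium and -0.57 in Myc-CaP, and Zswim4 of 0.82 and -0.54. These genes were chosen for this likeness, so their values are a description.

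**Figure D5:**
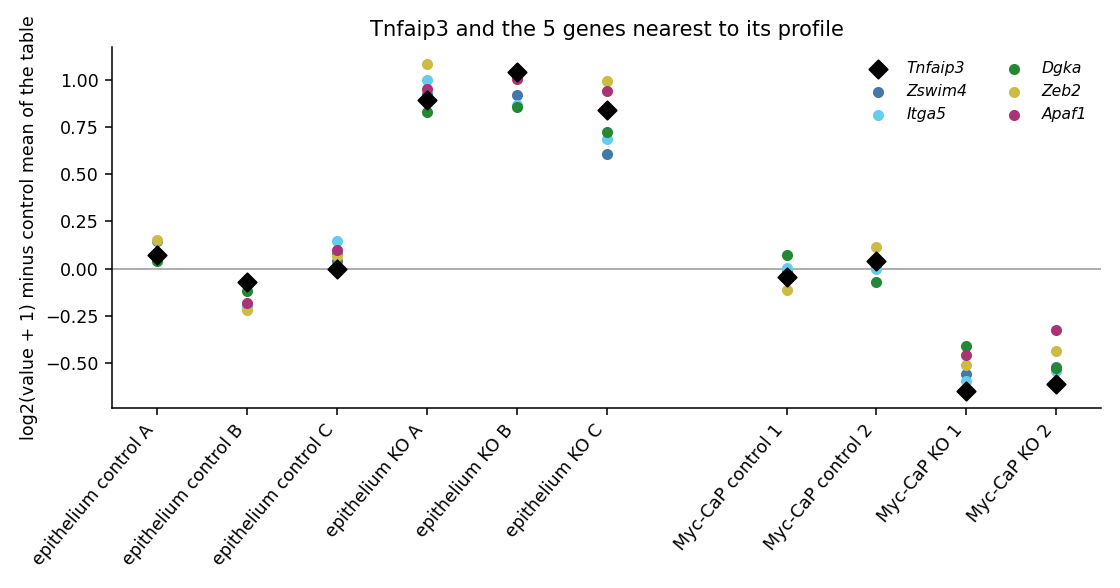
Log2(value + 1) of Tnfaip3 (black diamonds) and of the 5 genes of nearest profile in each of the 10 libraries, minus the control mean of the same table. All 6 genes lie above 0 in the epithelium libraries labelled Arid1a KO and below 0 in the Myc-CaP knockout libraries, the pattern by which the 5 were picked.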

How the data were processed

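RNA-seq values of 6 sorted epithelium and 4 Myc-CaP samples were used, grouped by the genotype label. Some single items are not reported here, though list counts include every listed gene. The authors state alignment with TopHat2 and strand-specific HTSeq-count, while the submitters' processing notes list HISAT2, HTSeq and mm10; which was used is not settled here. The authors deposited the epithelium as RPKM and Myc-CaP as TPM. Neither is a count, so count models were not fitted, and read depth behind single values is unknown apart from relative depth. Of the rows, 27 were named by a date and 4 shared 2 names. Genes averaging at least 0.5 entered the test on log2(value + 1) by limma 3.58.1 in R 4.3.3 (eBayes with trend), each table alone, two-sided, with Benjamini-Hochberg adjustment over all genes tested. The fit was tested on simulated data. Exact permutation tests used SciPy. The 10 genes and the gene lists were chosen with earlier results of these data known. Named from each list were at most 3 called genes of largest fold change per table whose groups did not overlap, and marker lists were read as counts and sums. Epcam, Krt8, Hoxb13, Foxa1, Pbsn, Cd52, Ptprc, Relb, Casp8 and Fadd were named after their values were seen. Promoter coordinates come from RefSeq on GRCm38.p6, and gene bounds from GENCODE. Alternatives changed the pseudocount, filter, scaling, length trend, variance trend, block, thresholds and replicates.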

Additional observations from a re-analysis of the deposited data

Results flagged for a closer look

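For 12 of the genes named, every knockout library lay above every control library in the epithelium and below every empty vector library in Myc-CaP. Groups that do not overlap are common here, at 66.7% of the genes tested in the epithelium and 51.5% in Myc-CaP, and 1143 of the 12123 genes tested in both tables (9.43%) had this pattern. The difference between the 2 systems was not tested, since the tables were normalized separately. The whole-gene level of Arid1a was not lower in the epithelium libraries labelled Arid1a KO, which cannot show whether a deleted part was lost. On the log2(value + 1) scale, Tnfaip3 was at 0.93 in the epithelium and -0.63 in Myc-CaP, and Nfkb2 at 0.43 and -0.43, both called in both tables. Cyld was at 0.21 and -0.43, Ripk3 at 0.95 and -0.14, Smurf1 at 0.62 and -0.15, Smurf2 at 0.39 and -0.08, and Tnfaip2 at 1.46 and -0.28; these 5 were called in the epithelium and not in Myc-CaP. Ripk3, Smurf1, Smurf2 and Tnfaip2 were named because they were called with groups apart in the epithelium, and Nfkb2 because it was so in Myc-CaP. That choice fixed in advance that their groups stood apart in that system. The count of 12 can therefore not be weighed against the 9.43% of all genes. The other 5 of the 12 were picked for their likeness to Tnfaip3, which fixes the pattern. Of these, Zswim4 (0.82 and -0.54) and Itga5 (0.85 and -0.57) were called in both tables, and Dgka (0.81 and -0.47), Zeb2 (1.03 and -0.48) and Apaf1 (0.97 and -0.39) in the epithelium. With 2 or 3 libraries a group, single libraries that stand apart from their group could not be looked for.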

How the results depend on the processing

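Tnfaip3 kept its direction and its call in the epithelium under all 16 alternatives (0.87 to 1.10), as did Itch and Traf6. In Myc-CaP it kept its direction under all 14 and its call under 10; leaving out 1 library moved it between -0.68 and -0.59 with no call, left 0 of the 9 genes called each time and 47 to 76 genes called in all, with the lone sample assumed to vary like the other group. In the epithelium, 9294 genes were called, 5872 with a filter at a mean of 5 (fewer genes tested) and 4037 with the thresholds of the study, an unadjusted p under 0.05 and 1.5-fold; of the 10 genes, those thresholds called 3 (Tnfaip3, Itch and Traf6) and rescaling to the same sum called 8. In Myc-CaP 899 genes were called, 358 without a filter and 451 without a variance trend; the cause was not tested. In the epithelium the replicate labels did not pair the samples: deviations of same-lettered samples correlated at 0.041, 0.009 and -0.057. In Myc-CaP deviations of same-numbered samples correlated at 0.195 and of differently numbered ones at -0.195. With only 2 pairs, whether the Myc-CaP samples were paired could not be told. With the replicate label as a block, 4 of the 10 genes were called in the epithelium (Cyld at an adjusted p of 0.0717) and 3 in Myc-CaP, with Cyld (0.0268) and Tax1bp1 (0.00633) joining Tnfaip3, among 2771 genes. Levels without read counts limit what can be said of low genes.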
